A study of Rattus norvegicus with 12 samples.

Results

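Among 12 colon arrays from rats fed a normal-protein or a high-protein diet, 9 were compared here: 3 that carried a middle-position pattern of homeobox genes and 6 that carried a distal-like one. Arrays were placed by their own readings on the normalized log2 scale. The rule set a threshold for Hoxb13 in the gap between the values 9.32 and 11.996, and one of 10 for Hoxb6 and Hoxb7. An array was middle where all 3 genes lay below their thresholds, and distal-like where Hoxb13 lay above its own. The rule left 3 further arrays, with Hoxb6 and Hoxb7 above 10 and Hoxb13 below its threshold, which are called proximal-like. The middle arrays were normal-protein replicates 3, 4 and 5 (NP3, NP4 and NP5). The distal-like arrays were normal-protein replicates 1 and 2 (NP1 and NP2) and high-protein replicates 1, 2, 5 and 6 (HP1, HP2, HP5 and HP6). The proximal-like arrays were NP6, HP3 and HP4.

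All animals were male Wistar rats of 180 to 200 g that had eaten their diet for 6 weeks, and every sample was labelled as colonic epithelium. Age, the protein content of either diet and the segment of colon were not found in the labels, so "middle", "distal-like" and "proximal-like" are working names for homeobox readings and not labels. All 3 middle arrays were on the normal-protein diet and 4 of the 6 distal-like arrays on the high-protein diet, so values against NP1 and NP2 alone are given beside those against all 6. Nothing in the labels says that replicates came from separate animals, so p-values measure the spread between these samples, which may be technical in part.

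Homeobox genes of the Hox clusters encode transcription factors that mark position along the body and along the gut. Members from the 3' end of a cluster are used further forward, and those from the 5' end, such as Hoxb13, further back. The rat colon changes in function along its length: the proximal part holds more of the fermenting content and its bile acids, and the distal part absorbs sodium and potassium under the control of aldosterone.

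Hoxb13 read 8.26, 5.83 and 9.32 on NP3, NP4 and NP5. It read 12.05 and 11.996 on NP1 and NP2, and 12.03, 12.56, 12.49 and 12.26 on HP1, HP2, HP5 and HP6. The array nearest above the threshold was therefore NP2, and the array nearest below it was NP5 at 9.32. On the proximal-like arrays Hoxb13 read 6.12 to 7.49, so NP4 lay below all of them for that gene. Hoxb6 lay between 6.51 and 7.49 on the 9 middle and distal-like arrays and between 10.82 and 10.95 on the proximal-like ones. Hoxb7 lay between 6.38 and 7.08 on the same 9 arrays and between 10.29 and 10.81 on the other 3. These 3 genes chose the arrays, so their levels are a description, carry no test and were left out of every fit. The same 12 placings came out of each of 5 other ways of normalizing the values.

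**Figure D1:**
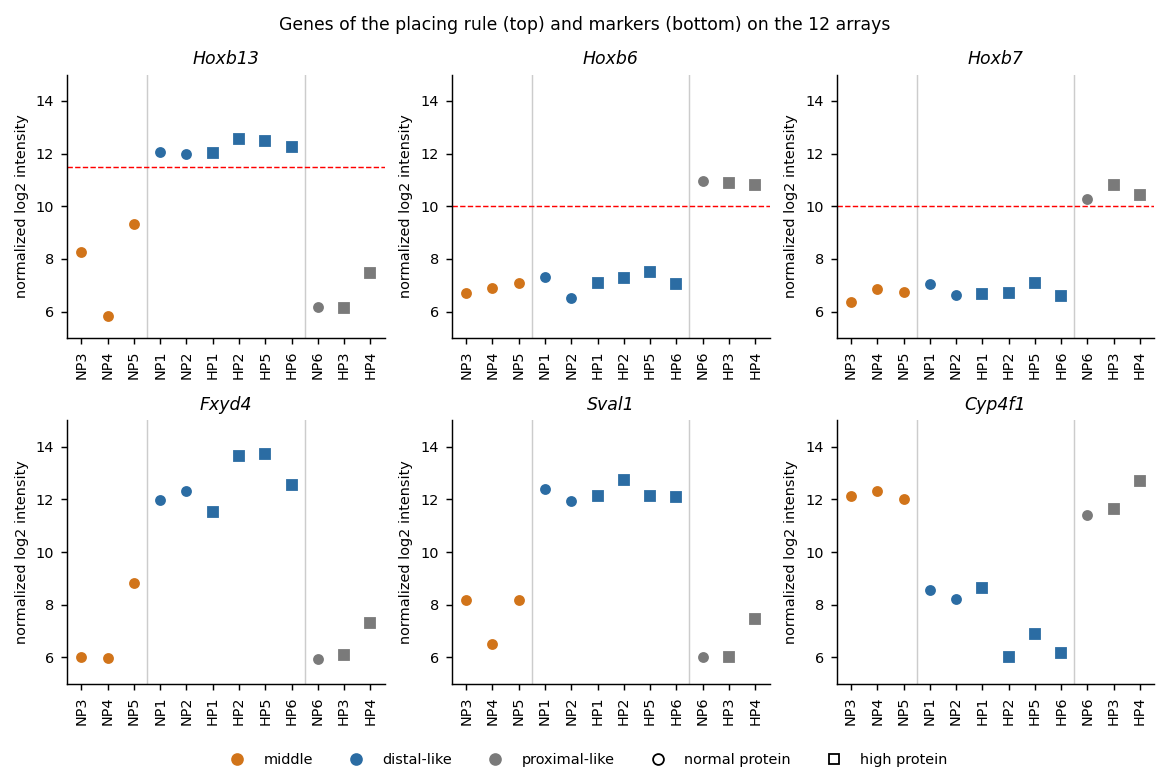
Normalized log2 intensity (vertical axes) of the rule genes Hoxb13, Hoxb6 and Hoxb7 and of the markers Fxyd4, Sval1 and Cyp4f1 on each of the 12 arrays (horizontal axes), coloured by placing, with circles for normal and squares for high protein. Dashed lines mark the thresholds; the 3 middle arrays lie below the 6 distal-like ones for Hoxb13, Fxyd4 and Sval1 and above them for Cyp4f1.

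Spots flagged good by the scanner software made up 42.7% of gene spots on NP3, 54.1% on NP4 and 53.6% on NP5, against 51.2% to 55.5% on the distal-like arrays. NP3 was thus the dimmest, with a 75th percentile of signal minus background of 133 intensity units against 232 to 387 on the distal-like arrays. Each of the 3 slides held 1 middle array and at least 1 distal-like array. Smooth muscle genes were bright on all 9 arrays although the label names epithelium: Myh11, the smooth muscle myosin heavy chain, read 13.35 to 13.40 on the middle and 12.98 to 13.49 on the distal-like arrays. Precision is limited by how few arrays each group holds.

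A total of 10435 genes were tested for a difference between the middle and the distal-like mean (limma, Benjamini-Hochberg adjusted p below 0.05 over all genes). Of these, 260 were called, which is 2.49% of the genes tested. In the middle arrays 157 were higher (1.5% of the genes tested) and 103 lower (0.987%). The median difference over all genes was -0.0002 on the log2 scale. An unadjusted limma p below 0.05 was reached by 1558 of the 10435 genes, which is the background for such counts in the lists below. At least a 2-fold difference was seen for 52 of the higher and 35 of the lower genes. Because the arrays were grouped on readings of their own, the calls show which other genes followed that grouping. They are no test of a labelled condition.

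Middle and distal-like values did not overlap for 921 genes, or 8.83% of those tested, and for 258 of the 260 called genes. All 260 differed in the same direction within each of the 3 slides. For the 258 this was fixed in advance, because each slide held both kinds of array, so it is no further support. The split depended on the scaling: with each array scaled to its median, 144 genes were called, of which 55 (38.2%) were higher in the middle arrays, against 60.4% here. That scaling moved the median difference of all genes by -0.13. Without NP4 the count fell to 85, without NP5 to 125, without NP3 to 154 and without HP6 to 168.

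Against NP1 and NP2 alone, 54 genes were called, or 0.517% of those tested, 36 of them higher and 18 lower in the middle arrays. This contrast rests on 3 arrays against 2 and uses the spread of all 9. Of these 54, 52 were also among the 260. The remaining 2 were Mt2A, a metallothionein, and a transcript without a symbol. The count was 16 without NP1 and 31 without NP2. It was 19, 25 and 24 without NP3, NP4 and NP5. Of the 60 called genes chosen by the naming rule, all 60 had the same sign against NP1 and NP2 and 24 were called there. For Dpep1, Slc35g2 and Rgs5 the log2 difference shrank by more than 1.5 times.

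**Figure D2:**
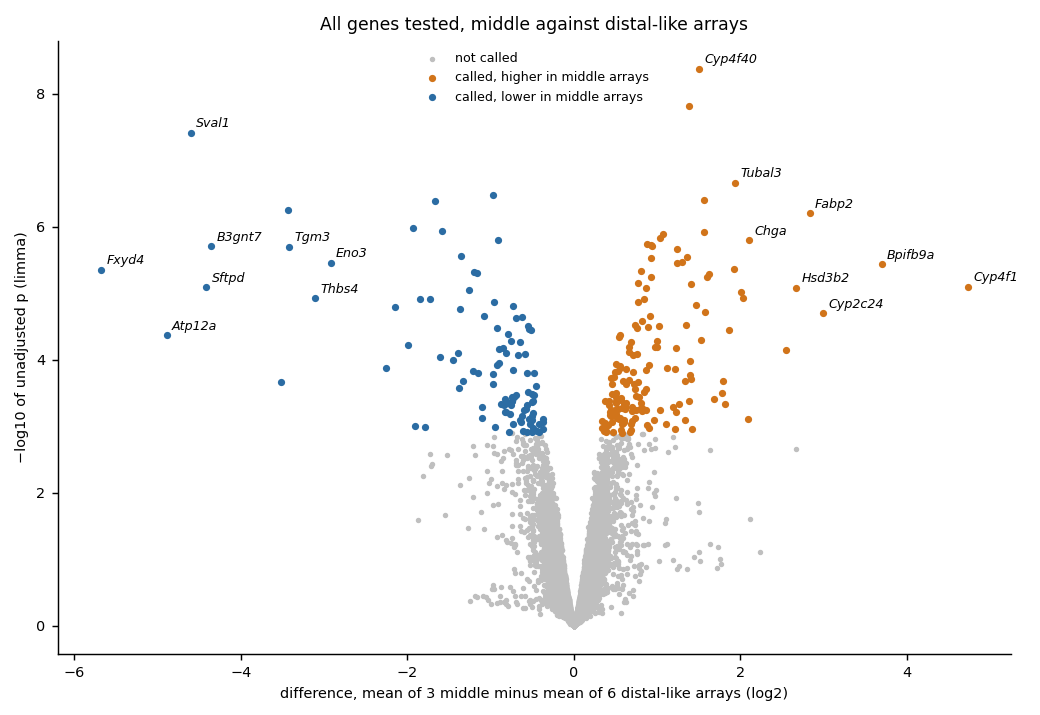
Each point is 1 of the 10435 genes tested: the horizontal axis is the mean of the 3 middle minus the mean of the 6 distal-like arrays (log2), the vertical axis the -log10 of the unadjusted limma p. The 157 called higher genes (orange) reach 4.73 for Cyp4f1 and the 103 called lower genes (blue) reach -5.68 for Fxyd4.

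The 2 largest differences belonged to subunits of ion pumps. Fxyd4, also known as corticosteroid-hormone-induced factor, is a small subunit that modulates the sodium pump. It read 6.03 and 5.97 on NP3 and NP4 and 8.83 on NP5, where 1 of the 3 values came from a good spot, against a lowest value of 11.51, a median of 12.44 and a highest of 13.73 on the distal-like arrays. The groups were far apart, and NP5 stood above the other middle arrays. The difference was -5.68 ± 0.67 (standard error, 3 against 6 arrays), with an adjusted p of 0.0015, and -5.21 against NP1 and NP2 alone (adjusted p = 0.041). As NP3 and NP4 had no good spot, no fold is given. Good spots on at least 6 arrays were needed for testing. Fxyd4 could reach that number only with the distal-like arrays, so its p-values are a description.

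Atp12a encodes the catalytic subunit of the colonic proton-potassium pump, which takes up potassium across the apical membrane. It read 6.02, 5.83 and 8.03 on NP3, NP4 and NP5, where 1 of the 3 values came from a good spot. On the distal-like arrays it read 9.48 at the lowest, 11.72 at the median and 12.78 at the highest. Again NP5 was the highest of the middle arrays, and NP1 the lowest of the distal-like ones. The difference was -4.89 ± 0.74 (adjusted p = 0.0059), with no fold given for the same reason, and -3.70 against NP1 and NP2, which was not called (adjusted p = 0.10). Without NP4 the difference against all 6 was -4.50 and no longer called (adjusted p = 0.051). Atp12a too could reach the good arrays needed for testing only with the distal-like ones, so its p-values are a description.

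Fxyd4 and Atp12a were the only called members of the aldosterone list. Of 20 tested genes of sodium and potassium transport, 0 were higher and 2 lower, and the median difference was -0.03 (0.07 against NP1 and NP2). The epithelial sodium channel subunits Scnn1a and Scnn1b gave differences of -0.46 and -0.13, the mineralocorticoid receptor Nr3c2 gave -0.20, and the glucocorticoid-inactivating enzyme Hsd11b2 gave -0.04. Among 25 genes of chloride, bicarbonate and proton transport, 1 was higher and 2 were lower, with a median of 0.11. Best2, an anion channel of colonic goblet cells, read 7.73, 7.43 and 7.54 on the middle arrays and 8.56 to 10.11 on the distal-like ones. Its difference of -1.99 ± 0.31 was 3.98-fold (adjusted p = 0.0075), and -1.92 without NP4 (adjusted p = 0.057). It was -1.58 against NP1 and NP2 and not called (adjusted p = 0.14). Ano1, a calcium-activated chloride channel, was 1.76-fold lower, and Slc4a2, the basolateral anion exchanger, was 1.76-fold higher. Both lost their call when NP4 was left out and against NP1 and NP2 alone (adjusted p = 0.070 and 0.42). For Slc4a2 the other tested probe gave a log2 difference of 0.35, against 0.82 for the probe used.

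Promoters of 4 genes are printed for these opposite patterns: the genes with the 2 largest negative differences, the gene with the largest positive difference, and a bile acid exporter subunit described below. Each is the 250 bases before the start site from RefSeq (build GRCr8), written 5' to 3' on the gene's strand. Capitals mark matches to 3 short motifs searched on both strands: CAATAAA, the core shared by Hox13 and Cdx factors; CAAAGTC, a core of the Hnf4 site; and GTTAAT, a core of the Hnf1 site. Fxyd4 lies on the minus strand at chr4:152786046-152786295, Atp12a on the plus strand at chr15:34558959-34559208, Cyp4f1 on the minus strand at chr7:12672554-12672803 and Slc51a on the plus strand at chr11:81803891-81804140.
Fxyd4: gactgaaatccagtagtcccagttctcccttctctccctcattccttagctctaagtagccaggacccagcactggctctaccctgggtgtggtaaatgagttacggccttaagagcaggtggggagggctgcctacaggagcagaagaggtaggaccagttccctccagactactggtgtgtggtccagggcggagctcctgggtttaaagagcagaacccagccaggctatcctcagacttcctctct
Atp12a: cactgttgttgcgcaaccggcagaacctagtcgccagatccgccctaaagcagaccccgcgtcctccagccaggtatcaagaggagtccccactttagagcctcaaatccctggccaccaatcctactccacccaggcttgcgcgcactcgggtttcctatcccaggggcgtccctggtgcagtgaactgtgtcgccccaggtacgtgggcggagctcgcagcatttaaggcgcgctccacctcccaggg
Cyp4f1: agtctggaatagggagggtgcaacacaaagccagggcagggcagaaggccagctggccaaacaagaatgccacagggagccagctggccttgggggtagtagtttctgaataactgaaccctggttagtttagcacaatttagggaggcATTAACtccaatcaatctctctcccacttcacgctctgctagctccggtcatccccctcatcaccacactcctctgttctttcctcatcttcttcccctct
Slc51a: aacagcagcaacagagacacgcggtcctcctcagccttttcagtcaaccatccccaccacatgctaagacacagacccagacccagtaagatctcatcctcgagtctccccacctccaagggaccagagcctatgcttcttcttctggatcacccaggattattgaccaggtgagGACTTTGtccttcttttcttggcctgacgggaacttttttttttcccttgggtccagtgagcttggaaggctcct

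The Cyp4f1 window held 1 match to the Hnf1 core, from -101 to -96, and the Slc51a window 1 match to the Hnf4 core, from -75 to -69, both on the reverse strand. The Fxyd4 and Atp12a windows held none of the 3 motifs. Other windows were searched and are not printed. Those of Bpifb9a and Cyp2c24, both higher in the middle arrays, also held none. That of Tph1, also higher, held the Hnf1 core, and that of Ctse, a called lower gene, held CAATAAA. The printed windows thus do not stand for their sides. A promoter was in the table for 116 of the 157 higher and 74 of the 103 lower genes. CAATAAA was found in 3.45% of the former, 5.41% of the latter, 2.49% of tested genes with a promoter and 4.08% of all promoters. CAAAGTC was found in 6.90%, 4.05%, 3.14% and 3.95% of the same sets, and GTTAAT in 3.45%, 4.05%, 3.68% and 6.46%. These shares rest on 3 to 8 genes in each called set and describe letters in a window, not binding.

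Sval1, Sftpd and Mptx1, described next, encode secreted proteins. Sval1, a protein related to seminal vesicle antigen, read 8.19, 6.53 and 8.19 on NP3, NP4 and NP5 and 11.93, 12.14 and 12.75 at the lowest, median and highest of the distal-like arrays. No middle value came near a distal-like one, and 2 of the 3 middle values came from good spots. The difference was -4.60 ± 0.33 (adjusted p = 0.00013), and -4.53 against NP1 and NP2 (adjusted p = 0.0062). Sval1 also could reach the good arrays needed for testing only with the distal-like ones, so its p-values are a description. Sftpd, the collectin surfactant protein D, read 8.85, 7.47 and 10.67 on the middle arrays and 12.65 to 13.94 on the distal-like ones, a difference of -4.41 ± 0.55, and -3.81 against NP1 and NP2 (adjusted p = 0.049). Mptx1, the mucosal pentraxin of the rat colon, differed less: it read 12.68, 11.77 and 10.91 against 12.69 to 14.42, so NP3 all but reached HP1. Its difference of -1.91 ± 0.42 was 3.76-fold (adjusted p = 0.043). It was called under 10 of 20 alternatives, and without NP5 it was -1.47 (adjusted p = 0.18). The difference from NP1 and NP2 alone was -1.64 and not called (adjusted p = 0.44).

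B3gnt7 encodes a glycosyltransferase that extends keratan sulphate and related sugar chains. It read 9.40, 7.24 and 9.93 on NP3, NP4 and NP5 and 12.77, 13.18 and 13.65 at the lowest, median and highest of the distal-like arrays. Among the middle arrays NP4 was lowest for this gene, for Sval1 and for Sftpd, whereas NP5 was lowest for Mptx1. The difference was -4.36 ± 0.47, or 20.5-fold (adjusted p = 0.00098), and -4.13 against NP1 and NP2 (adjusted p = 0.028). Of 31 glycosyltransferase and sulphotransferase genes tested, 3 were higher and 3 lower, with a median of 0.05. Chst5, a sulphotransferase, had no good spot on any middle array. Its level there is a bound, so the gene was at least 2.87-fold lower, with the bound taken from the dimmest good probe of each middle array (adjusted p = 0.0026). It was kept for testing only through good spots on other arrays, so that p is a description. B3gnt3 was also lower (-0.56 ± 0.13), and 3 genes were higher: Galnt3 (0.58 ± 0.12), which starts mucin-type sugar chains, Gcnt3 (1.10 ± 0.24), which branches them, and Abo (0.82 ± 0.17), which adds the terminal blood group sugar. Of these 6 genes B3gnt7 alone was called against NP1 and NP2.

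Tgm3, Thbs4 and Eno3 also gave large negative differences. Tgm3, a transglutaminase that cross-links proteins, read 7.66, 6.93 and 8.25 on the middle arrays and 10.22 to 11.95 on the distal-like ones, a difference of -3.42 ± 0.37. Thbs4, a matrix thrombospondin, read 8.87, 8.14 and 9.71 against 10.72 to 12.61, a difference of -3.11 ± 0.41. Eno3, the muscle-type enolase of glycolysis, read 8.87, 8.24 and 9.01 against 10.68 to 12.12, a difference of -2.92 ± 0.33. For none of these 3 genes did the groups overlap. They gave -3.25, -2.58 and -2.63 against NP1 and NP2, with adjusted p of 0.028, 0.060 and 0.036.

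Stard4, a carrier of cholesterol, differed by -0.74 ± 0.15, and by -0.61 against NP1 and NP2 (adjusted p = 0.37). It was called under 11 of 20 alternatives. It was among the 2 lower genes of 20 in the cholesterol list, of which 0 were higher and whose median was -0.05. Akr1c15, an aldo-keto reductase, read 8.91, 8.79 and 8.96 against 10.31 to 11.43, a difference of -1.93 ± 0.19. It was also called against NP1 and NP2 alone (-1.57, adjusted p = 0.012).

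**Figure D3:**
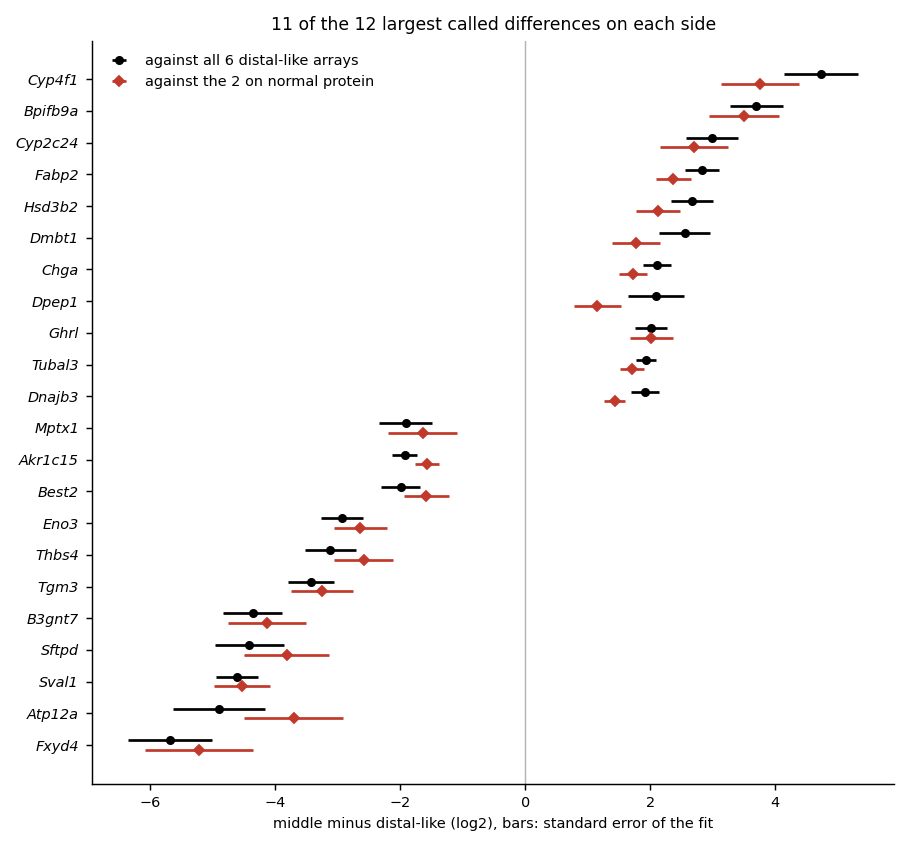
Differences of 11 of the 12 called genes of largest size on each side (horizontal axis, log2, middle minus distal-like), with the standard error of the fit as bars. Black circles set the 3 middle arrays against all 6 distal-like arrays and red diamonds against the 2 on normal protein; for Fxyd4 these are -5.68 and -5.21 and for Cyp4f1 4.73 and 3.76.

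On the higher side, the cytochrome P450 Cyp4f1 gave the largest difference. This enzyme, a hydroxylase of fatty acids and eicosanoids, read 12.13, 12.32 and 12.003 on NP3, NP4 and NP5. On the distal-like arrays it read 8.55 and 8.23 on NP1 and NP2 and 8.65, 6.02, 6.89 and 6.16 on HP1, HP2, HP5 and HP6. The middle values were close together, whereas HP2, HP5 and HP6 lay below the other 3 distal-like arrays. Of the 6 distal-like values 4 came from good spots, so no fold is given. The difference was 4.73 ± 0.59 (adjusted p = 0.0020), and 3.76 against NP1 and NP2 (adjusted p = 0.041).

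Its relative Cyp4f40 gave the smallest p of all genes, but had no good spot on any distal-like array. It was kept for testing only through good spots on the other arrays, where it read higher, so its p is a description. It read 7.77, 7.68 and 7.69 against 6.08 to 6.39 and was at least 2.64-fold higher (adjusted p = 4.3e-05). Cyp2c24 read 10.20, 10.63 and 10.32 against 6.71 to 8.54, a difference of 2.99 ± 0.41, and 2.70 against NP1 and NP2, which was not called (adjusted p = 0.076). Cyp2f4 went the other way, at least 2.42-fold lower, with no good spot on a middle array. Of 20 P450 genes tested, 3 were higher and 1 was lower, with a median of 0.12. Cyp4f1 and Cyp4f40 alone were called against NP1 and NP2. P450 genes of 1 subfamily are alike in sequence, so probes named for Cyp4f1 and Cyp4f40 may also take up a neighbour's transcript.

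Among 40 genes of conjugation and efflux, 5 were higher and 2 lower, with a median of -0.03, and none of the 40 was called against NP1 and NP2, where the median was 0.01. Abcg2, an apical efflux pump, read 9.03, 9.27 and 9.19 against 7.17 to 8.44, a difference of 1.53 ± 0.23, and 1.48 without NP4 (adjusted p = 0.053). It was 1.11 against NP1 and NP2 (adjusted p = 0.10). Abcb1b, a P-glycoprotein, was higher by 1.33 ± 0.29 but was called under only 8 of 20 alternatives. The other tested probe of Abcb1b gave only 0.34. Ces2c, a carboxylesterase with no good spot on a distal-like array, was at least 1.35-fold higher. Both subunits of the basolateral bile acid exporter were higher, and they were the 2 called of 7 bile acid genes tested (median 0.25). Slc51b read 9.48, 9.55 and 9.25 against 7.75 to 8.57, a difference of 1.41 ± 0.17 (adjusted p = 0.0020), and 1.14 against NP1 and NP2 (adjusted p = 0.041). Slc51a, whose promoter is printed above, read 8.72, 8.56 and 8.05 against 6.56 to 7.51, a difference of 1.40 ± 0.25. It was 1.41 against NP1 and NP2, which was not called (adjusted p = 0.16), and it lost its call without NP3 (adjusted p = 0.077) or NP4 (adjusted p = 0.082). The bile acid receptor Nr1h4 gave 0.28 and was not called.

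The 3 higher genes of the brush border and lipid list handle fatty acids, and the 2 lower ones are peptidases. Fabp2, the intestinal fatty acid-binding protein, read 12.01, 11.81 and 11.43 on the middle arrays and 8.41, 8.89 and 9.55 at the lowest, median and highest of the distal-like ones. The groups lay well apart, with a difference of 2.83 ± 0.27, or 7.11-fold (adjusted p = 0.00073), and 2.37 against NP1 and NP2 (adjusted p = 0.012). Fabp1, its liver-type relative, read 9.59, 10.31 and 10.47 against 7.31 to 8.91, a difference of 1.78 ± 0.34, and 1.68 without NP4 (adjusted p = 0.11). It was 1.40 against NP1 and NP2 (adjusted p = 0.33). Slc27a4, a fatty acid transporter, was higher by 0.77 ± 0.14. The brush border peptidases Dpp4 and Mep1b were lower, by -1.26 ± 0.16 and -0.70 ± 0.13. Over 24 brush border and lipid genes, 3 were higher and 2 lower, with a median of 0.22, and Fabp2 and Dpp4 were called against NP1 and NP2. Pparg, the nuclear receptor of fat metabolism, read 10.33, 10.33 and 10.30 against 9.21 to 9.58, a difference of 0.87 ± 0.09, and was the only called gene of 30 in the list of butyrate uptake and fat oxidation.

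Other genes high on the middle arrays were Bpifb9a, a secreted protein of the BPI fold family, and Hsd3b2, a dehydrogenase of steroid synthesis. Bpifb9a read 10.06, 11.89 and 10.78 against 6.54 to 8.27, a difference of 3.70 ± 0.43. Hsd3b2 read 12.08, 12.18 and 11.75 against 8.71 to 10.55, a difference of 2.67 ± 0.33. Both were also called against NP1 and NP2 alone, at 3.50 and 2.12. On the proximal-like arrays Bpifb9a read higher still, at 12.73 to 14.32, and Hsd3b2 overlapped with the middle arrays, at 10.40 to 12.17. Dmbt1, a mucosal scavenger glycoprotein, read 10.00, 10.53 and 10.78 against 7.01 to 9.25, a difference of 2.55 ± 0.41. It lost its call without NP4 (adjusted p = 0.057) and without NP5 (adjusted p = 0.055), and was 1.77 against NP1 and NP2 (adjusted p = 0.11).

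Dpep1, a membrane dipeptidase, read 12.76, 12.48 and 12.07 against 9.17 to 11.40, a difference of 2.09 ± 0.45. It was called under 12 of 20 alternatives. Set against NP1 and NP2 it was 1.15 and not called (adjusted p = 0.42). Within the distal-like arrays, Dpep1 was -1.40 on high minus normal protein (adjusted p = 0.82). Tubal3, a tubulin, and Dnajb3, a co-chaperone, differed by 1.93 ± 0.17 and 1.92 ± 0.22, and both were called against NP1 and NP2 alone. For Tubal3 only 3 of the 6 distal-like values came from good spots.

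Enteroendocrine cells are scattered hormone cells of the gut lining, among them the enterochromaffin cells that make serotonin. Of 17 of their genes tested, 8 were higher, 0 were lower and all 17 had a positive difference, with a median of 0.54 against -0.0002 over all genes. Against NP1 and NP2 alone, 5 were called higher and the median was 0.59. The mean level over the 17 genes was 8.98 to 9.06 on the middle and 7.97 to 8.33 on the distal-like arrays. Between 5 (without NP4 or NP5) and 9 (without NP3) were called when 1 array was left out.

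Chga, Ghrl, Chgb and Tph1 gave the largest differences among these called genes. Chga, chromogranin A, read 10.25, 10.17 and 9.59 on NP3, NP4 and NP5 and 7.34, 7.86 and 8.47 at the lowest, median and highest of the distal-like arrays. It differed by 2.11 ± 0.22, or 4.31-fold (adjusted p = 0.00098), and by 1.72 against NP1 and NP2 (adjusted p = 0.016). Chgb, chromogranin B, read 12.09, 11.64 and 11.75 against 9.23 to 10.52, a difference of 1.86 ± 0.27, and 1.33 against NP1 and NP2, which was not called (adjusted p = 0.067). Tph1, which makes the serotonin precursor, read 8.76, 8.98 and 8.40 against 7.64 and 7.61 on NP1 and NP2 and 6.80 to 6.96 on the high-protein arrays. The difference was 1.58 ± 0.22 against all 6 and 1.09 against NP1 and NP2 (adjusted p = 0.026). Slc18a1, the monoamine transporter that loads serotonin into granules, differed by 1.56 ± 0.16, and by 1.29 against NP1 and NP2 (adjusted p = 0.015).

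Of the hormones, Ghrl (ghrelin) read 7.23, 8.84 and 7.99 on the middle arrays and had no good spot on any distal-like array, where it read 5.93 to 6.07. It was at least 3.31-fold higher (adjusted p = 0.0022). Ghrl was kept for testing only through good spots on the middle and proximal-like arrays, so that p is a description. Gcg, the precursor of glucagon-like peptides, read 8.36, 8.38 and 8.57 against 6.88 to 7.81, a difference of 1.12 ± 0.19, and 1.23 against NP1 and NP2, which was not called (adjusted p = 0.091). Sst (somatostatin) gave 1.13 and Pyy (peptide YY) gave 0.22, and neither was called. Resp18 and Scg5, proteins of the regulated secretory route, were higher by 0.66 ± 0.11 and 0.50 ± 0.11, and Resp18 was also called against NP1 and NP2.

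**Figure D4:**
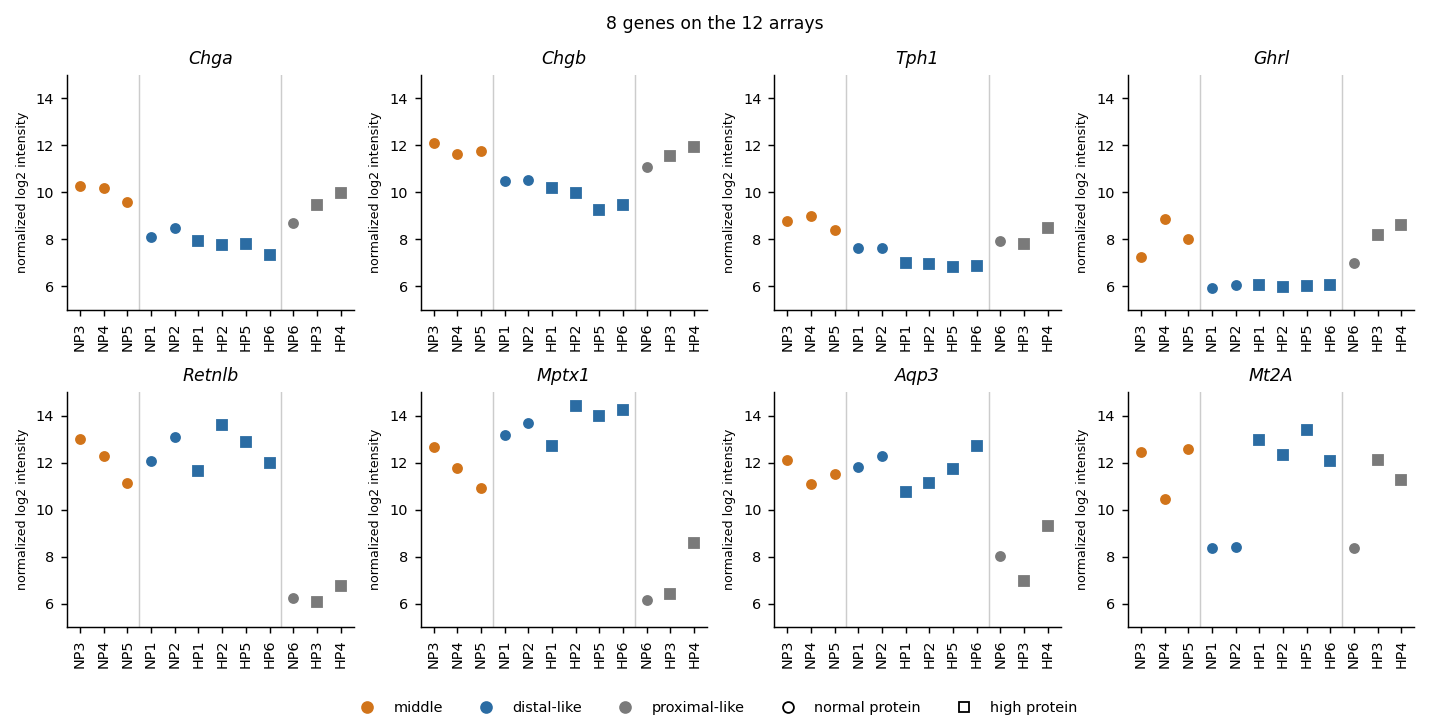
Normalized log2 intensity (vertical axes) of 8 genes on each of the 12 arrays (horizontal axes), coloured by placing, with circles for normal and squares for high protein. Chga, Chgb, Tph1 and Ghrl lie higher on all 3 middle than on all 6 distal-like arrays; Retnlb and Aqp3 overlap between these groups, and Mt2A reads 8.39 to 8.41 on NP1, NP2 and NP6 only.

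Markers of other cells moved with the grouping to different degrees. Of 13 genes of enteric neurons, glia and interstitial cells, 3 were higher and 0 lower (median 0.26): Gal (0.88 ± 0.19), Vip (0.90 ± 0.20) and the neuronal tubulin Tubb3 (0.34 ± 0.08). The summed level of that list, as a mean over its genes, was 7.55 to 7.80 on the middle and 7.18 to 7.47 on the distal-like arrays. The glial S100b gave 0.04. Each of the 3 calls held under at most 7 of 20 alternatives, and none was called against NP1 and NP2 alone.

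Of 21 smooth muscle genes, 1 was higher and 0 lower, with a median of 0.16 and overlapping mean levels (11.06 to 11.39 against 10.83 to 11.16). That gene was Pln, the inhibitor of the muscle calcium pump, at 10.32, 10.57 and 10.99 against 9.22 to 9.48 (1.24 ± 0.14). The contractile genes Myh11, Des and Actg2 gave 0.14, 0.10 and 0.00. In the endothelium and pericyte list 1 of 12 genes was higher, the pericyte gene Rgs5 (0.97 ± 0.21), called under 9 of 20 alternatives. Against NP1 and NP2 it gave 0.59 (adjusted p = 0.48). In the fibroblast list 0 of 25 genes were called.

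Of 17 general epithelial genes none was called, with 3 at an unadjusted p below 0.05, and the median was 0.13. Their mean level was 12.06 to 12.31 on the middle and 11.75 to 12.06 on the distal-like arrays. All 5 erythrocyte genes were below 0 (median -0.91) and none was called, though all 5 had an unadjusted p below 0.05. Their mean level was 9.12 to 10.23 on the middle arrays and 10.36 to 10.81 on the distal-like ones. With slide as a block in limma, Hbb was called (adjusted p = 0.021). With slide as a random block, Hbb and Hbb-b1 were called (adjusted p = 0.037 and 0.046). All 6 adipocyte genes were also below 0 (median -0.68, none called), with mean levels of 7.36 to 7.54 against 7.53 to 9.21. Fewer cells of a type and less RNA per cell cannot be told apart in these bulk samples, and the part of these markers in the results above was not tested.

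**Figure D5:**
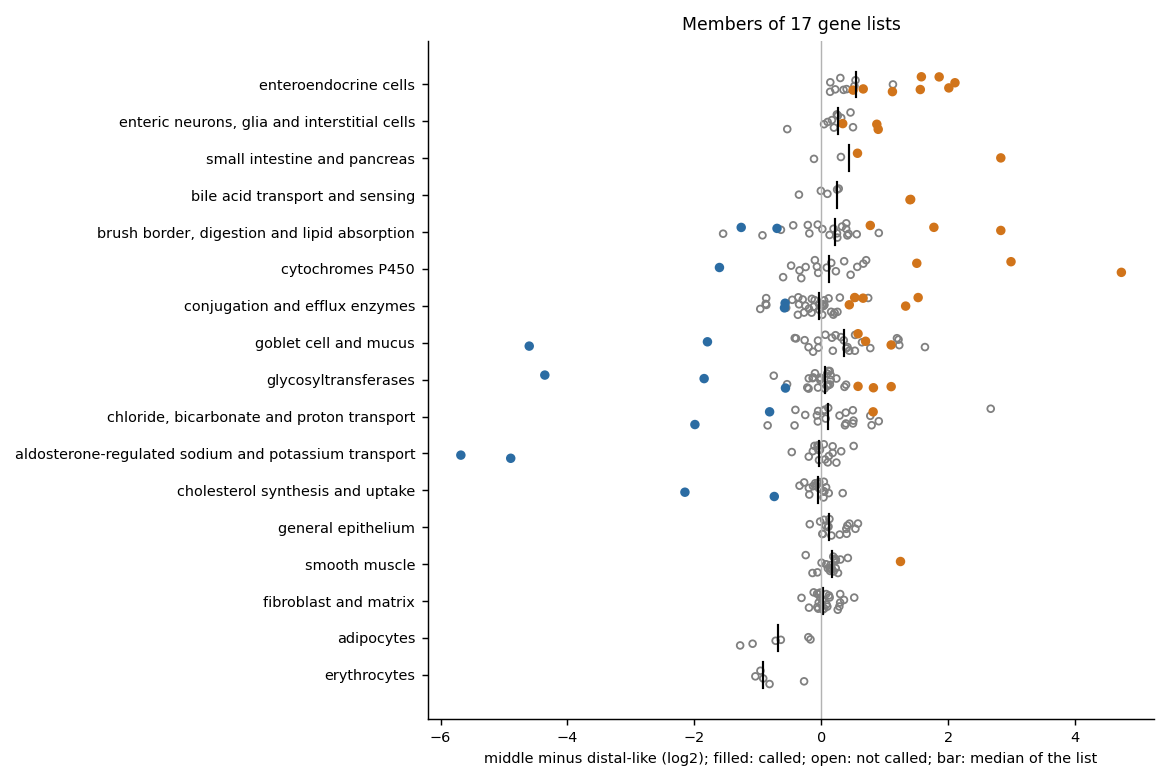
Each point is 1 gene of a list named on the vertical axis, placed by its difference, middle minus distal-like (horizontal axis, log2); filled points were called, open ones were not, and the bar is the median of the list. The enteroendocrine list has all 17 points above 0 and 8 called, and the erythrocyte list has all 5 points below 0 and none called.

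Goblet cells, which secrete mucus, gave a divided list. Of 29 genes tested 3 were higher and 2 lower, with a median of 0.36. The higher ones were Gcnt3, Galnt3 and Agr2, a protein disulphide isomerase needed for mucin folding (0.70 ± 0.15). The lower ones were Sval1 and Spink1, a trypsin inhibitor (-1.79 ± 0.40). The main mucin Muc2 read 14.37, 14.42 and 14.33 against 12.23 to 13.84 and was not called (1.19 ± 0.28, adjusted p = 0.055). Gcnt3 and Spink1 were each called under 10 of 20 alternatives. Of the 29 genes Sval1 alone was called against NP1 and NP2, where the median was 0.41.

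Position genes outside the rule were few. Of 9 posterior Hox and hindgut genes tested 1 was higher and 0 lower, with a median of -0.02 (0.06 against NP1 and NP2). Hoxa11 read 8.80, 9.17 and 8.91 on the middle arrays and 7.70 to 8.07 on the distal-like ones, a difference of 1.04 ± 0.11 (adjusted p = 0.00098), and 0.93 against NP1 and NP2 (adjusted p = 0.027). Hoxa13, the paralogue of Hoxb13, gave -0.10, and Hoxd10 gave -1.12 ± 0.41 with overlapping groups. The hindgut factors Cdx2 and Cdx1 gave 0.58 and 0.34, and neither was called. Of 13 gut transcription factors, 0 were higher and 1 lower: Foxa2, at -0.82 ± 0.17, called under 10 of 20 alternatives and not against NP1 and NP2 (-0.56, adjusted p = 0.43).

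Over all 12 arrays, the genes whose levels ran closest to Hoxb13 were B3gnt7, Sftpd, Sval1, Tgm3 and Fxyd4. Their Pearson correlations lay between 0.97 and 0.99, as a description over 12 arrays that share a platform and the 3 placings. The genes that ran most against it were Golm2, Tac4, Bpifb9a, Pde2a and Aoc1, at -0.95 to -0.93. Hoxb13 itself placed the arrays, and these genes are the extremes of all those tested. The correlations therefore restate the placing in part and are no separate support. Tac4 had no good spot on a distal-like array and was at least 1.65-fold higher in the middle ones. Golm2, Pde2a, a phosphodiesterase, and Aoc1, which breaks down histamine, differed by 0.82 ± 0.12, 0.93 ± 0.11 and 0.87 ± 0.11 between middle and distal-like arrays. Of these 3, Pde2a alone was called against NP1 and NP2.

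Several further lists held 1 or 2 called genes. In the antimicrobial list 0 of 20 were higher and 1 was lower, Wfdc2 (-1.15 ± 0.20). In the immediate early list, Egr1 was higher (0.78 ± 0.15) and Nr4a2 lower (-0.60 ± 0.12) among 26 genes. Of 18 metallothionein and Nrf2 genes, 2 were higher, Ephx1 (0.44 ± 0.08) and Me1 (0.55 ± 0.12). Prom1 was the only called gene of 13 in the crypt list (0.67 ± 0.15). Pla2g1b, the pancreatic phospholipase, was higher by 0.57 ± 0.13 at an adjusted p of 0.04999. It and Fabp2 were the 2 called of 4 genes tested in the list of small intestine and pancreas (median 0.44). Egr1, Nr4a2, Me1, Prom1 and Pla2g1b were each called under 6 to 11 of 20 alternatives. None of the genes named in this paragraph other than Fabp2 was called against NP1 and NP2. The metallothionein and Nrf2 list had a median of -0.14 against all 6 arrays and 0.12 against those 2. Lists of cell division (32 genes), tight junctions (26), interferon-induced genes (26), the unfolded protein response (24) and T and NK cells (12) held no called gene. Their medians were -0.05, 0.05, 0.05, 0.14 and 0.04, and 1, 4, 2, 2 and 0 of their genes had an unadjusted p below 0.05. Against NP1 and NP2 the medians were -0.36, -0.06, 0.03, 0.01 and 0.01, so that of cell division lay further below 0, with 7 of its 32 genes above 0, and that of tight junctions changed sign.

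The labelled diets could be compared within the distal-like arrays, 4 on high protein against 2 on normal protein. No gene was called (0% of 10435 by limma), with 520 at an unadjusted p below 0.05. The smallest adjusted p, 0.14, belonged to Mt2A, Slc35g2 and Tfrc. For Slc35g2 only 2 of the 6 distal-like values came from good spots. Mt2A read 8.39 and 8.41 on NP1 and NP2 and 12.97, 12.31, 13.37 and 12.07 on HP1, HP2, HP5 and HP6, a difference of 4.28 ± 0.56. Mt1, a second metallothionein, read 12.20 and 11.45 against 13.97 to 14.67, a difference of 2.45 ± 0.38 (adjusted p = 0.15). Metallothioneins are small proteins that bind zinc and copper.

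The middle arrays, all on normal protein, did not read like NP1 and NP2 for these genes. Mt2A read 12.45, 10.43 and 12.57 on NP3, NP4 and NP5, which was 3.42 ± 0.59 above NP1 and NP2 (adjusted p = 0.041). Against all 6 distal-like arrays its difference was 0.56 ± 1.16 and not called. Mt1 read 14.52, 13.07 and 14.11, 2.07 above NP1 and NP2 (adjusted p = 0.067). With NP4 left out of the shared spread, the diet difference within the distal-like arrays passed the threshold for Mt2A (adjusted p = 0.0042) and Mt1 (adjusted p = 0.024), and the count of called genes was 4.

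Tfrc, the transferrin receptor, read 10.18 and 9.95 on NP1 and NP2 and 8.996 to 9.36 on the high-protein distal-like arrays, a difference of -0.92 ± 0.13 (adjusted p = 0.14). Tph1 and Dnajb3, both called between middle and distal-like arrays, differed by -0.73 ± 0.15 and -0.74 ± 0.16 between diets. Neither passed the test (adjusted p = 0.66 and 0.80). Leaving out NP1 gave 12 called genes. That leaves 1 distal-like normal-protein array, which is then assumed to vary like the rest.

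A comparison of the middle with the 3 proximal-like arrays, added after the data were seen, called 17 genes, or 0.163% of those tested, 13 higher and 4 lower in the middle arrays. The genes named here were chosen after their values were seen. The count was 3 without NP3 or NP4, 9 without NP5, 26 without NP6, 22 without HP3 and 102 without HP4. Both groups lay below the threshold for Hoxb13, and Hoxb6 and Hoxb7 separated them. This contrast shares the middle arrays with the one above, so values are only set side by side. Retnlb, a goblet cell protein of the resistin family, read 12.99, 12.28 and 11.14 on NP3, NP4 and NP5 and 6.22, 6.09 and 6.74 on NP6, HP3 and HP4, where no spot was good. It was at least 51.4-fold higher (adjusted p = 0.0025). Retnlb was kept for testing only through good spots on the middle and distal-like arrays, so that p is a description. On the distal-like arrays Retnlb read 11.62 to 13.60, a middle minus distal-like difference of -0.40 ± 0.47 that was not called.

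Mptx1 was 4.74 ± 0.65 higher than on the proximal-like arrays, where it read 6.16, 6.40 and 8.59, and was lower than on the distal-like arrays. Aqp3, a water and glycerol channel, was 3.46 ± 0.58 higher than on the proximal-like arrays and gave -0.17 ± 0.39 against the distal-like ones. Fabp1 was 2.30 ± 0.36 lower than on the proximal-like arrays, where it read 12.11 to 12.69, and higher than on the distal-like arrays. Muc1 (1.98 ± 0.26), Txn1 (2.07 ± 0.29), Pkp1 (1.59 ± 0.19) and St6galnac4 (1.46 ± 0.14) were also higher than on the proximal-like arrays. Cyp4f1 gave 0.23 ± 0.57 and was not called there. Fabp2, Cyp2c24, Dmbt1, Chga, Tubal3 and Dnajb3 were also not called there, and their middle and proximal-like values overlapped.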

How the data were processed

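Total RNA labelled with Cy3 was hybridized to 12 single-colour Agilent rat arrays, 4 to a slide on 3 slides. The deposited intensities are scanner readings, not normalized, taken at 532 nm in GenePix Pro 6.1.0.4 per the file headers. The deposited flags mark a spot as good or not. The authors also deposited a table of log2 values. RMA appears in the submitters' processing notes, with neither version nor role. Its rows matched the scanner values when each was moved to the next probe ID (r from 0.952 to 0.985, slopes from 0.975 to 1.03) and not as given (r at most 0.015). Its scale and direction are thus known, its centring is not, and its column medians were 4.36 to 4.45. It served as an alternative.

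Mean spot intensities were background-corrected with normexp (offset 50), quantile-normalized and taken to log2, and spots of a probe were averaged. Probes good on at least 6 of the 12 arrays were kept, 13204 in all, of which the 11.1% without a gene name were left out. Names came from RefSeq accessions (18355 of 22031 accession-bearing probes matched) or else from the file, and the brightest probe stood for a gene. Of the called genes 28 had more than 1 tested probe, and for 0 of these did the probes differ in sign. The other probe gave a smaller difference for Tph1 (1.09), Dmbt1 (1.83) and Cyp2c24 (2.25), and a larger one for Bpifb9a (3.74). Hoxb13, Hoxb6 and Hoxb7 were left out. Differences were tested with limma 3.58.1 in R 4.3.3 over the 9 arrays, as 2 means or as 3 where the diets were kept apart. A gene was called below a Benjamini-Hochberg adjusted p of 0.05 over all 10435 genes. The scripts' test was checked on simulated data.

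Genes were named by this rule: the 12 called genes with the largest difference on each side, the markers, up to 3 called members of each of 42 lists (with none called, the 2 of smallest p), the 5 of smallest p on each side of the diet contrast, and the 5 most and least like Hoxb13. Some genes that the rule names are not reported here. Other list members with values were chosen after these were seen. The placing, the members and the lists were chosen with earlier results of these data known. Where no array of a group had a good spot, a fold is a bound: the bright group's mean against, on each dim array, the higher of the dimmest good probe and the probe's own value. The comparison with proximal-like arrays, over all 12 arrays with 4 means, and its alternatives were added after seeing the data. Alternatives were other scalings, offsets, filters and spot summaries, slide as a block, array weights, all 12 arrays, the value table, and each array left out in turn.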

Additional observations from a re-analysis of the deposited data

Results flagged for a closer look

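Within the 6 distal-like arrays, 1 array stood apart by Dixon's criterion for 6 of 107 named genes, which is close to the 1 in 20 that chance gives. NP2 read low for Thbs4, at 10.72 against 12.04 or more on the others, and high for Ccl5, a chemokine of T cells, at 8.96 against 8.14 or less. HP2 read low for Slc4a2, at 8.38. HP5 read low for Hbb-b1, at 11.05, HP1 for Krt20, at 12.23, and HP6 for Nfil3, at 6.30. No array stood apart for more than 2 of these genes.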

How the results depend on the processing

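Of the 60 named genes called between middle and distal-like arrays, all 60 kept their direction under each of the 20 alternatives, and 26 were called under all 20. Of the 24 with the largest differences, 19 were. With 1 array left out, the direction was fixed in advance for genes whose groups did not overlap. The count of 260 was 165 with all 12 arrays in the fit, 403 with array weights and 144 with median scaling. It ran from 85 to 295 when 1 array was left out, and from 186 to 335 under the other alternatives, with 298 with slide as a block. Against the distal-like normal-protein arrays the count of 54 was 21 with all 12 arrays, 13 with median scaling, 19 without a filter, 85 with slide as a random block and 28 in the value table. It ran from 16 to 48 when 1 array was left out. The diet count of 0 was 1 with median scaling and ran from 0 to 12 when 1 array was left out. The count of 17 against the proximal-like arrays was 27 with median pixels and ran from 3 to 102. The causes were not tested.

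Genes that changed sign were all uncalled under that setting. With median scaling these were Aqp1 (-0.035), Ccdc71l (-0.011), Mfap5 (-0.19), Tfrc (-0.081) and Tp63 (-0.064). With 75th percentile scaling they were Aqp4 (0.029) and Mfap5 (-0.028), and with slide as a block Mfap5 (-0.014). With 1 array left out, Aqp1 ran from -0.0077 to 0.33, Mfap5 from -0.11 to 0.065, Mt2A from -0.0098 to 1.26 and Tp63 from -0.021 to 0.24.

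The replicate block, over the distal-like arrays, also called 0 genes between diets. The numbers share only a name: the labels do not say that they pair animals, and over genes the difference NP1 minus NP2 correlated at 0.233 with HP1 minus HP2. No paired analysis was possible for middle against distal-like arrays because NP3 and NP4 share no number with a distal-like array. Dim probes limit the bounds given above, and 13 called genes had no good spot in 1 of the groups. These 13 were kept for testing only through good spots in the other groups. Their calls and their places in list counts are therefore a description. The same limit holds for called genes such as Fxyd4, Atp12a and Sval1, with good spots on only part of the middle arrays.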

Other observations

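By limma, some lists with no called gene held several members at an unadjusted p below 0.05. Over all 10435 genes 1558 had such a p, so a few members per list are no result by themselves. Of 8 genes of MHC class II antigen presentation, 5 had such a p and the median was 0.46 (0.16 against NP1 and NP2). RT1-Db1 read 11.40, 11.66 and 11.31 on the middle and 10.58 to 11.29 on the distal-like arrays (0.58 ± 0.17, adjusted p = 0.11). Its difference against NP1 and NP2 alone was 0.31. Of 9 tuft cell genes 5 had such a p, with a median of 0.29, led by Plcg2 (0.35) and Alox5ap (0.29). Among 18 macrophage and dendritic cell genes 4 had such a p, with a median of 0.23. Against NP1 and NP2 alone that median was -0.06, with 7 of 18 genes above 0. Cd14, a co-receptor for bacterial lipopolysaccharide, gave -0.74 ± 0.17 (adjusted p = 0.0504) while Fcgr3a gave 0.41. Of 16 genes of mineral transport 4 had such a p: the phosphate transporter Slc20a1 and the magnesium channel Trpm6 gave -1.18 and -1.04 and were both called without NP1.

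In the remaining lists no gene passed the test by limma either. Of 9 amino acid transporters (median 0.10) 4 had an unadjusted p below 0.05, as did 3 of 10 retinoid genes (0.12), 1 of 15 glucocorticoid and clock genes (-0.04) and 1 of 8 mast cell and granulocyte genes (0.12). Among the retinoid genes Rbp4, the plasma carrier of retinol, gave -1.02 ± 0.31 (adjusted p = 0.13). None of 5 aquaporins (median 0.0039), 5 B and plasma cell genes (0.23) and 2 squamous genes (-0.10) had such a p, nor had Hoxa7, the single anterior Hox gene tested (0.36 ± 0.17). Against NP1 and NP2 alone several of these medians moved: to -0.34 for mast cells and granulocytes, with 1 of 8 genes above 0, to -0.04 for B and plasma cells, to -0.07 for aquaporins and to 0.31 for retinoid genes.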
